A study of Bos taurus with 15 samples.

Results

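Transcripts of 10 genes that build the matrix next to the cell surface and the basement membrane were followed in engineered bovine meniscal tissue. They were the 3 main chains of type VI collagen (COL6A1, COL6A2, COL6A3), the fibril-associated collagens XII and XIV (COL12A1, COL14A1), the ubiquitous chains of type IV collagen (COL4A1, COL4A2), the laminin γ1 chain (LAMC1), nidogen-1 (NID1) and perlecan (HSPG2). The genes were selected by symbol, with earlier results of these data known. Each symbol belonged to 1 row among the 38001 bovine genes in the table, and all 10 genes were among the 11834 with enough counts to be tested.

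The samples were bovine meniscal fibrochondrocytes, the matrix-forming cells of the knee meniscus, sampled on day 28. All groups had the same culture history, 3 days in growth medium with 10% serum and then 25 days in chondrogenic medium with 10 ng/ml TGF-β3, ascorbic acid and dexamethasone. In the no-mold group the cells were held in collagen as free blobs. The other tissues came from molds with post anchors (anchored) or without them (unanchored) and were cut into a middle region and a post region, so that 4 molded groups arose, the middle and the post region of unanchored tissue and those of anchored tissue. Every group had 3 libraries of polyadenylated RNA, 15 in all. The labels give no age, sex or number of animals for the cells and leave unsaid whether the 3 libraries of a group stem from 3 constructs, so a p-value here describes the variation among libraries, part or all of which may be technical. A middle and a post piece may also come from the same construct, since the labels do not tie regions to tissues.

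In the knee meniscus, as in cartilage, type VI collagen forms beaded filaments around each cell and is a hallmark of the pericellular matrix, the thin shell that couples the cell to the load-bearing fibres. Collagens XII and XIV lie on the surface of type I collagen fibrils and link them to neighbouring fibrils and to other matrix proteins. Type IV collagen, laminin, nidogen and perlecan are the 4 core components of basement membranes, and they also occur in the pericellular matrix of chondrocytes, where no continuous basement membrane is formed. Nidogen binds laminin through the γ1 chain and ties the laminin network to the type IV collagen network, and perlecan is a heparan sulfate proteoglycan that binds growth factors.

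Library totals ran from 2060781 to 7415701 counts. The no-mold libraries were shallow as a group (2060781, 4466562 and 2128257 counts), and anchored middle library 2 was the shallowest molded one (2986944). On the first principal component, which held 28.0% of the variance, the no-mold libraries lay between -34.0 and -17.0 and the molded libraries between -2.54 and 15.2. All 12 fibrochondrocyte markers on the list were tested, among them COL1A1, COL2A1 and ACAN, with a summed level between 27758 and 42643 CPM (counts scaled to a common library total) in every library. Most of that sum was COL1A1, COL1A2 and LUM, and single markers differed between groups: COL2A1 had a mean of 708.2 CPM without a mold and 48.4 to 155.5 CPM in the molded groups, and SOX9 224.0 CPM against 123.9 to 139.6 CPM. Basement membrane genes are also made in quantity by endothelial and mural cells, so markers of these cells were examined. Of 11 endothelial markers only ERG had enough counts to be tested, PECAM1, CDH5 and VWF had 10, 5 and 14 counts over all libraries together, and ESAM and ROBO4 had 0. The summed endothelial level was 73.4 to 80.2 CPM without a mold and 58.2 to 85.2 CPM in the molded libraries, nearly all of it ERG. Of 9 mural markers 7 were tested, RGS5 and MCAM had 1 and 4 counts in total, and the summed level was 122.1 to 138.7 CPM without a mold and 89.0 to 144.3 CPM in molded libraries.

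Among the 10 genes, 3 of the 5 basement membrane genes separated tissue cast in a mold from free blobs. COL4A1, LAMC1 and NID1 were higher in the mean of the 4 molded groups than without a mold, by 2.43-fold, 1.38-fold and 2.00-fold, and no library of one side overlapped the other for any of them. The share of all tested genes without such overlap was not counted, here or in any later comparison. The type VI chains, COL12A1, COL14A1, COL4A2 and HSPG2 did not pass. Thus 3 of 10 genes were called higher and 0 lower at an adjusted p under 0.05 (edgeR's quasi-likelihood test, Benjamini-Hochberg adjustment over all tested genes), where 16% of all tested genes were called, 8.04% higher and 7.91% lower. The median log2 fold change of the 10 genes was 0.24, against 0.00 for all tested genes, and 8 of 10 were above 0, against 50.1% of all tested genes. In bulk RNA a smaller share of cells that make a transcript and less of it per cell cannot be told apart.

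**Figure D1:**
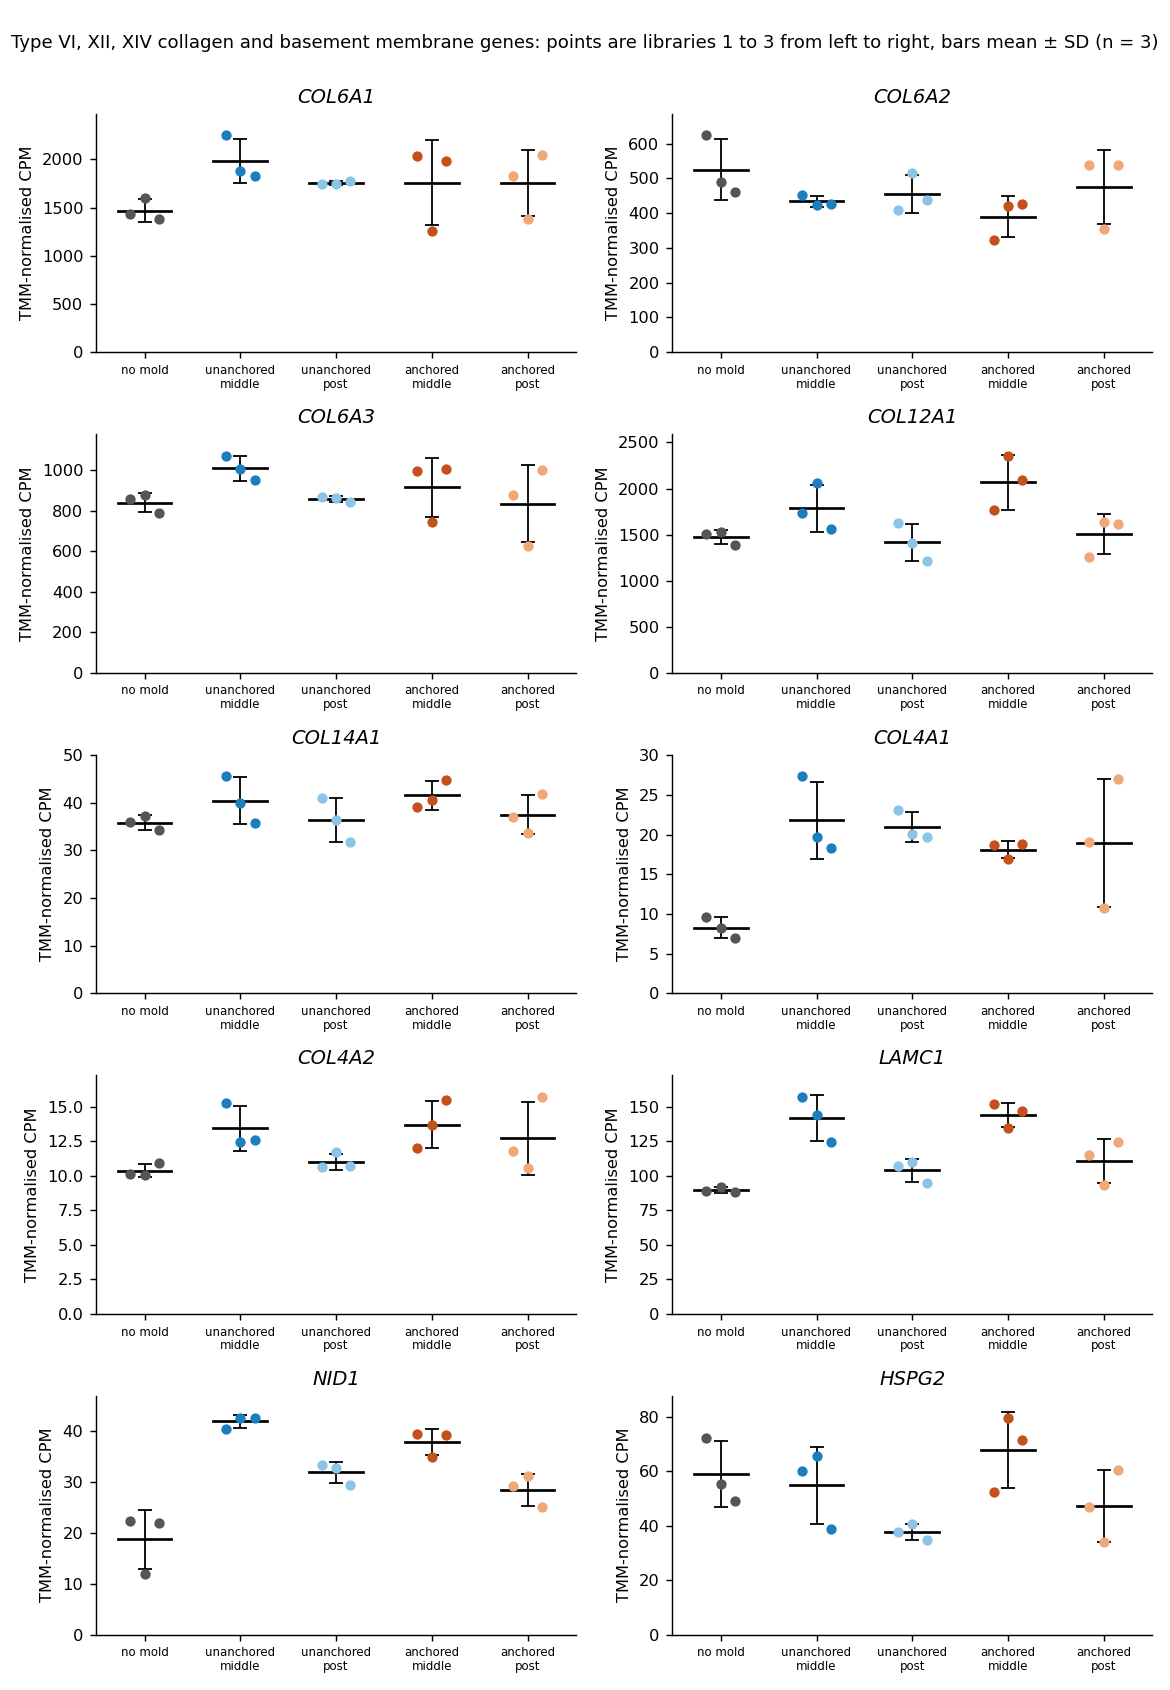
TMM-normalised CPM (y axis, from 0) of each of the 10 genes in every library, by group on the x axis. Points are libraries 1 to 3 from left to right, and bars are the mean ± SD of 3 libraries. COL4A1, LAMC1 and NID1 lie lowest in all 3 no-mold libraries, and NID1 also separates every middle from every post library.

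COL4A1 encodes the α1 chain that, joined by α2 in a ratio fixed in the trimer, makes the common type IV collagen network. Without a mold its level was 9.62, 8.23 and 6.95 TMM-normalised CPM in libraries 1, 2 and 3, from 19, 36 and 14 counts. In unanchored tissue it was 27.4, 19.7 and 18.3 CPM in the middle region and 23.1, 20.1 and 19.7 CPM in the post region. In anchored tissue it was 18.7, 16.9 and 18.8 CPM in the middle region and 19.1, 10.8 and 27.0 CPM in the post region. Every molded library lay above every no-mold library, and the one nearest to them was anchored post library 2. The log2 fold change of molded over no mold was 1.28 ± 0.247 (SE; edgeR adjusted p = 0.00102). It rested on few no-mold counts: without the 3 shallowest libraries, which leaves 1 no-mold library, the log2 fold change was 1.30 and the adjusted p 0.0609.

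NID1, the linker between laminin and type IV collagen, stood at 22.3, 11.9 and 21.8 CPM without a mold. The middle libraries held 40.4, 42.6 and 42.6 CPM in unanchored and 39.4, 34.8 and 39.3 CPM in anchored tissue. The post libraries held 33.3, 32.8 and 29.4 CPM in unanchored and 29.2, 31.1 and 25.0 CPM in anchored tissue. The 3 kinds of sample formed steps with no overlap, with no mold lowest, post between and middle highest. The log2 fold change of molded over no mold was 1.00 ± 0.147 (SE; adjusted p = 6.62e-05), and the call held under all 20 alternatives that were run. No-mold library 2 was the lowest of all 15 libraries. Without it the log2 fold change was 0.65 (adjusted p = 0.00488).

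LAMC1 encodes the γ1 chain shared by most laminin trimers. Its no-mold values were the tightest of any of the 10 genes, 89.1, 91.9 and 88.3 CPM. Middle libraries held 157.0, 143.9 and 124.5 CPM in unanchored and 151.6, 134.7 and 146.5 CPM in anchored tissue. Post libraries held 107.3, 110.0 and 94.4 CPM in unanchored and 114.7, 93.5 and 124.6 CPM in anchored tissue. All molded libraries lay above all no-mold libraries, although anchored post library 2 exceeded the highest no-mold library only narrowly. The log2 fold change was 0.46 ± 0.0959 (SE; adjusted p = 0.00185), and without the 3 shallowest libraries it was 0.44 (adjusted p = 0.116). Of the LAMC1 counts, 81.5% lay in library values that were not whole, as when a read is shared among several places. COL4A1, NID1, HSPG2 and COL14A1 had 0% in such values. A library's entire value enters this share if it carries any fraction, so the share does not measure how many reads were shared. How far shared reads affect the LAMC1 level was not tested.

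Sequencing depth moved with the mold comparison, and its part in the result was not tested. For the deepest no-mold and the shallowest molded library the values restate the separation given above. No-mold library 2, with 4466562 counts, lay below every molded library for COL4A1, LAMC1 and NID1. Anchored middle library 2, with 2986944 counts, lay above every no-mold library for the same genes, at 16.9, 134.7 and 34.8 CPM. Mitochondrial transcripts made up 1.40%, 1.74% and 1.43% of the counts without a mold and 1.52% to 2.36% in molded libraries, 10 of 12 of them above every no-mold library. Summed adipocyte markers ranged from 287.1 to 323.0 CPM without a mold and from 312.3 to 616.8 CPM in molded libraries, with overlap. FABP4 had group means of 253.8 CPM without a mold and 350.0 to 433.8 CPM with one, whereas LPL had 47.8 CPM without and 18.7 to 43.0 CPM with one, PLIN1 lay between 2.06 and 3.11 CPM in all groups, and CIDEC had 12 counts in total. The part of the mitochondrial share and of these markers in the result was not tested.

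The remaining basement membrane genes, COL4A2 and HSPG2, did not pass in the mean of the molded groups. COL4A2, the partner chain of COL4A1, was at 10.1, 10.1 and 10.9 CPM without a mold and between 10.6 and 15.7 CPM in molded libraries, with overlap. Every middle library exceeded the highest no-mold library for COL4A2, whereas post libraries lay on both sides of it. The log2 fold change of COL4A2 was 0.30 ± 0.169 (SE; adjusted p = 0.234), with a 95% interval from -0.07 to 0.68. HSPG2, which encodes the large proteoglycan perlecan, was at 72.4, 55.3 and 49.1 CPM without a mold. It reached 60.2, 65.6 and 38.9 CPM in unanchored middle, 37.6, 40.6 and 34.8 CPM in unanchored post, 52.4, 79.7 and 71.4 CPM in anchored middle and 46.9, 34.2 and 60.5 CPM in anchored post libraries. The no-mold values fell inside the molded range, and the log2 fold change was -0.21 ± 0.164 (SE; adjusted p = 0.432).

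The type VI collagen chains were among the most abundant transcripts of the tissue, and none was called in the mean of the molded groups. Before adjustment, the 95% intervals of the log2 fold change excluded 0 for COL6A1 (0.02 to 0.58) and COL6A2 (-0.52 to -0.01), in opposite directions. COL6A1, the α1 chain, was at 1429, 1601 and 1377 CPM without a mold. Molded libraries ran from 1252 in anchored middle library 2 to 2249.9 in unanchored middle library 1, and the other 2 libraries of anchored middle were at 2038 and 1982 CPM. The sides overlapped, and the log2 fold change was 0.30 ± 0.125 (SE), with an adjusted p of 0.105 in edgeR. The call was reached without anchored middle library 2 (0.35, adjusted p = 0.0109), without anchored post library 2 (adjusted p = 0.0469) and with no filter on low counts (adjusted p = 0.00284).

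COL6A2, the α2 chain, pointed the other way, at 623.8, 490.0 and 460.5 CPM without a mold and 321.7 to 537.1 CPM in molded libraries. Its log2 fold change was -0.26 ± 0.114 (SE; edgeR adjusted p = 0.122), and the sides overlapped. COL6A3, the long α3 chain, was at 856.7, 874.4 and 787.5 CPM without a mold and 626.3 to 1069.7 CPM in molded libraries, with a log2 fold change of 0.10 ± 0.108 (SE; adjusted p = 0.583). None of the 3 chains that together form the type VI monomer passed, and the lowest value of COL6A3, like the second lowest of COL6A1 among molded libraries, belonged to anchored post library 2.

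The fibril-associated collagens did not pass in the mean of the molded groups. COL12A1, a long collagen of stretched connective tissue, was at 1509.9, 1525 and 1389.9 CPM without a mold. In middle regions it was at 1737, 2058 and 1560.4 CPM in unanchored and 1762, 2355 and 2090.2 CPM in anchored libraries. In post regions it was at 1625, 1406 and 1217 CPM in unanchored and 1254, 1639.6 and 1618 CPM in anchored libraries. All 6 middle libraries exceeded the highest no-mold library, whereas post libraries lay on both sides of it. Over all molded groups the log2 fold change was 0.18 ± 0.109 (SE; adjusted p = 0.275). COL14A1, which is typical of differentiated fibrous tissue, stayed between 31.8 and 45.5 CPM in all 15 libraries, with no-mold values of 35.9, 37.3 and 34.2 CPM inside that range and a log2 fold change of 0.11 ± 0.11 (SE; adjusted p = 0.538).

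Each molded group was also set against the no-mold libraries on its own. These 4 comparisons share their no-mold libraries and are not independent of each other. In unanchored middle tissue COL4A1 (log2 fold change 1.41, adjusted p = 0.00149), LAMC1 (0.66, adjusted p = 0.000515) and NID1 (1.27, adjusted p = 2.28e-05) were higher, 3 of 10 genes where 14.8% of all tested genes were called, 7.56% higher and 7.2% lower. COL6A1 followed at 0.43 with an adjusted p of 0.0605, and it passed without anchored middle library 1 (0.047) or 2 (0.0108) or anchored post library 2 (0.0347) and in DESeq2 (0.0498). In anchored middle tissue the same 3 genes passed, COL4A1 at 1.15 (adjusted p = 0.00922), LAMC1 at 0.69 (adjusted p = 0.000361) and NID1 at 1.14 (adjusted p = 9.59e-05). COL12A1 passed there as well, at 0.49 (adjusted p = 0.0193), which made 4 of 10 genes where 13.3% of all tested genes were called, 7.11% higher and 6.2% lower. The COL12A1 call was lost without no-mold library 3 (adjusted p = 0.0916), without anchored middle library 2 (0.0517) or 3 (0.0522), and without the 3 shallowest libraries (0.378). COL6A2 was at -0.43 in anchored middle tissue (adjusted p = 0.0537), below all no-mold libraries in all 3, and passed without unanchored post library 2 (0.0499), anchored middle library 2 (0.0361) or anchored post library 2 (0.0175). COL6A1 passed there without anchored middle library 2 (0.45, adjusted p = 0.0178).

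Post regions held fewer calls against no mold. In unanchored post tissue COL4A1 (1.35, adjusted p = 0.00386) and NID1 (0.88, adjusted p = 0.00216) were higher, 2 of 10 genes where 9.02% of all tested genes were called, 4.93% higher and 4.09% lower. In anchored post tissue the same pair passed, COL4A1 at 1.23 (adjusted p = 0.011) and NID1 at 0.70 (adjusted p = 0.0163), 2 of 10 genes where 5.56% of all tested genes were called, 2.92% higher and 2.64% lower. LAMC1 was at 0.21 (adjusted p = 0.284) in unanchored post and 0.31 (adjusted p = 0.125) in anchored post tissue. HSPG2 was at -0.64 in unanchored post tissue (adjusted p = 0.0526), with all 3 libraries below all no-mold libraries, and it passed when any of 5 other molded libraries was left out (adjusted p between 0.0293 and 0.0369). The anchored post calls changed when single libraries were left out: without no-mold library 2 neither gene passed (COL4A1 adjusted p = 0.0533, NID1 0.36 with adjusted p = 0.209), COL4A1 was lost without no-mold library 3 (0.0632) or anchored post library 3 (0.0636), and NID1 without anchored post library 2 (0.0556), where LAMC1 passed instead (0.41, adjusted p = 0.0453). COL4A1 also lost its call without no-mold library 2 in anchored middle tissue (0.0505).

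Ordered by group mean, the genes fell into several patterns. LAMC1, COL14A1 and COL4A2 shared 1 order: anchored middle was highest, then came unanchored middle, anchored post and unanchored post, and no mold was lowest. For LAMC1 the means were 144.3 ± 8.67, 141.8 ± 16.3, 111.0 ± 15.9, 103.9 ± 8.33 and 89.8 ± 1.87 CPM (SD, n = 3), and the values of neighbours in this order overlapped except those of unanchored post and no mold. NID1 ran from unanchored middle (41.8 ± 1.26 CPM) over anchored middle (37.8 ± 2.58), unanchored post (31.8 ± 2.12) and anchored post (28.4 ± 3.10) to no mold (18.7 ± 5.88), and its neighbours were apart except the 2 post groups. COL4A1 ran from unanchored middle (21.8 ± 4.86 CPM) over unanchored post (21.0 ± 1.88), anchored post (18.95 ± 8.09) and anchored middle (18.1 ± 1.08) to no mold (8.27 ± 1.34), where only the last step did not overlap. COL6A2 was the single gene of the 10 with its highest mean in the no-mold group (524.8 ± 87.0 CPM) and its lowest in anchored middle tissue (389.5 ± 58.8). For the type VI chains, COL12A1, COL14A1, COL4A2 and HSPG2 all neighbouring groups overlapped. The highest group mean exceeded the lowest by 2.64-fold for COL4A1 and 2.24-fold for NID1, but by only 1.16-fold for COL14A1 and 1.21-fold for COL6A3.

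Since chains of a collagen assemble together, ratios of their counts within a library were compared; this comparison was chosen after the values had been seen. A ratio between genes in 3′-end libraries is no measure of chain stoichiometry, so only its change between libraries was read. The ratio of COL4A2 to COL4A1 was 1.05, 1.21 and 1.57 in the no-mold libraries and 0.461 to 0.983 in the 12 molded libraries, with a median of 0.623. All no-mold libraries lay above all molded ones. The log2 difference was -0.96 (two-sided exact permutation p = 0.004396, the smallest that 3 against 12 libraries allow, and 0.0352 after adjustment over 8 ratio tests). Leaving out 1 library at a time gave -1.09 to -0.80 with exact p between 0.0055 and 0.022, and without the 3 shallowest libraries the difference was -0.93, with 1 no-mold library and no test. In the RefSeq annotation of assembly ARS-UCD2.0, COL4A1 and COL4A2 are neighbours on chromosome 12, as COL6A1 and COL6A2 are on chromosome 1. COL4A2 had 37.5% of its counts in values that were not whole and COL4A1 0%, again no measure of how many reads were shared.

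The ratio of COL6A2 to COL6A1 was 0.437, 0.306 and 0.334 without a mold and 0.158 to 0.335 in molded libraries (median 0.241), a log2 difference of -0.55 (exact permutation p = 0.0132, adjusted 0.0469). The ratio of COL6A3 to COL6A1 was 0.599, 0.546 and 0.572 without a mold and 0.454 to 0.595 with one (median 0.490), a log2 difference of -0.20 (exact permutation p = 0.0176, adjusted 0.0469). Both sides overlapped through 1 molded library, anchored middle library 2. Without no-mold library 1 the exact p was 0.0659 for COL6A2 to COL6A1 and 0.0879 for COL6A3 to COL6A1. Depth moved with both ratios: the 4 shallowest of the 15 libraries held the 4 highest values of each, and 3 of the 4 highest values of COL4A2 to COL4A1. These shallow libraries were the no-mold libraries and anchored middle library 2, so depth and mold group largely coincided. For COL4A2 to COL4A1 the 3 were the no-mold libraries, and anchored middle library 2 was at 0.809. The part of depth in these ratios was not tested. The ratio of COL14A1 to COL12A1 differed by -0.06 on the log2 scale (exact permutation p = 0.686).

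**Figure D2:**
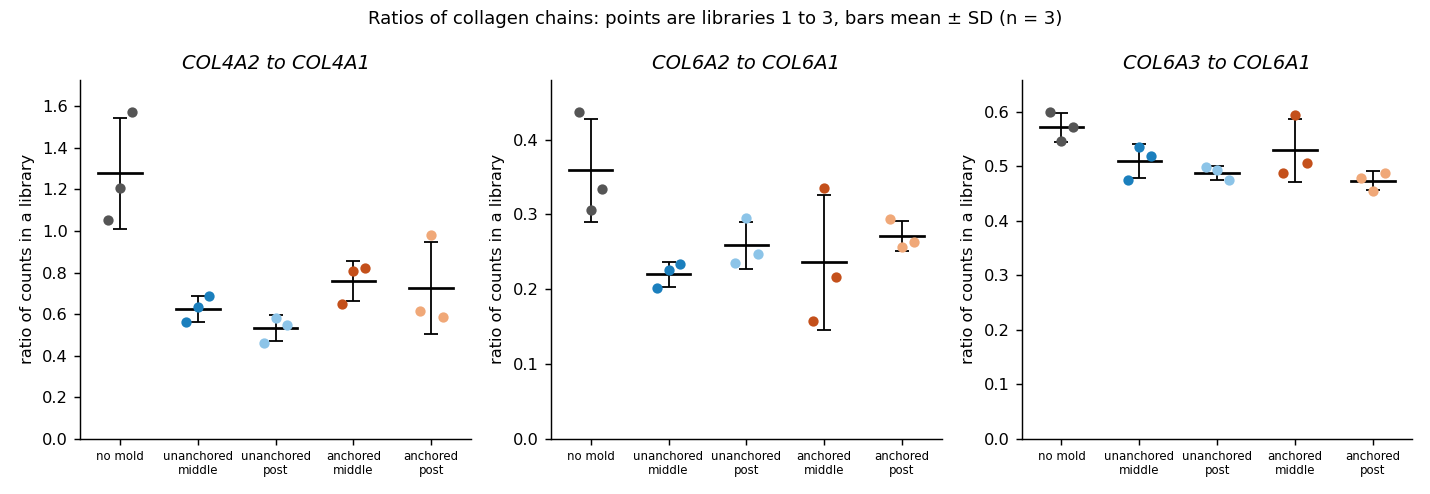
Ratios of expected counts within a library (y axis, from 0) for COL4A2 to COL4A1, COL6A2 to COL6A1 and COL6A3 to COL6A1, by group on the x axis. Points are libraries 1 to 3 and bars the mean ± SD (n = 3). The no-mold ratios of COL4A2 to COL4A1 (1.05 to 1.57) lie above all molded ratios (up to 0.983), and for the type VI ratios anchored middle library 2 reaches the no-mold range.

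Within molded tissue, the post and middle regions were compared over both mold types. COL12A1, LAMC1, NID1 and HSPG2 were lower in the post region, to 0.760-fold, 0.750-fold, 0.750-fold and 0.698-fold of the middle level. COL4A1 had the same mean in both regions, 20.0 CPM. Thus 4 of 10 genes were called lower and 0 higher, where 8.51% of all tested genes were called, 5.19% lower and 3.32% higher. The median log2 fold change of the 10 genes was -0.19, against -0.01 for all tested genes.

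LAMC1 averaged 107.4 CPM in post and 143.0 CPM in middle libraries, a log2 fold change of -0.42 ± 0.0764 (SE; adjusted p = 0.00148). Only unanchored middle library 3 at 124.5 CPM and anchored post library 3 at 124.6 CPM crossed. NID1 averaged 30.1 and 39.8 CPM, a log2 fold change of -0.41 ± 0.095 (SE; adjusted p = 0.00826), and the highest post library (33.3 CPM) was below the lowest middle library (34.8 CPM). Both calls held under all 20 alternatives, with adjusted p up to 0.00734 for LAMC1 and 0.0301 for NID1.

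COL12A1 averaged 1460.1 CPM in post and 1927 CPM in middle libraries (log2 fold change -0.40 ± 0.096, SE; adjusted p = 0.012), and values of the regions overlapped. HSPG2 averaged 42.4 and 61.4 CPM (log2 fold change -0.52 ± 0.133, SE; adjusted p = 0.0171), and the regions overlapped, with unanchored middle library 3 at 38.9 CPM and anchored post library 3 at 60.5 CPM. Without unanchored middle library 2 both calls were lost, at adjusted p of 0.0557 for COL12A1 and 0.0684 for HSPG2.

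Of the other 6 genes none passed between regions. The log2 fold changes were -0.09 for COL6A1 (adjusted p = 0.66), 0.18 for COL6A2 (0.303), -0.18 for COL6A3 (0.245), -0.15 for COL14A1 (0.294), 0.01 for COL4A1 (0.981) and -0.19 for COL4A2 (0.338). The 95% interval of COL4A1 ran from -0.32 to 0.34 on the log2 scale, that of COL6A1 from -0.33 to 0.15. The chain ratios also gave no call between regions after adjustment, although COL6A2 to COL6A1 was higher in post libraries by 0.25 on the log2 scale (exact permutation p = 0.132, adjusted 0.176). Without the 3 shallowest libraries that difference was 0.37 (exact permutation p = 0.00433, not adjusted). COL14A1 to COL12A1 differed by 0.25 (exact permutation p = 0.0455, adjusted 0.0727) and COL6A3 to COL6A1 by -0.11 (exact permutation p = 0.0433, adjusted 0.0727).

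Within 1 mold type, with 3 libraries against 3, none of the 10 genes was called. In anchored tissue 1.92% of all tested genes were called, 0.254% higher and 1.66% lower, and the log2 fold changes were -0.46 for COL12A1 (adjusted p = 0.0827), -0.38 for LAMC1 (0.0701), -0.44 for NID1 (0.107) and -0.49 for HSPG2 (0.218). For COL12A1, LAMC1 and NID1 all 3 anchored post libraries lay below all 3 anchored middle libraries. Regions did not overlap for 3 of the 10 genes in anchored and 5 of the 10 in unanchored tissue. The share of all tested genes without overlap was not counted, so these counts have no background to be read against. In unanchored tissue 0.448% of all tested genes were called, 0.0676% higher and 0.38% lower, and the values were -0.33 for COL12A1 (0.277), -0.45 for LAMC1 (0.06), -0.39 for NID1 (0.184) and -0.55 for HSPG2 (0.197). In each mold type the same 4 genes had an unadjusted p under 0.05 in edgeR. The comparison over both mold types, which called these 4 genes, is the average of the 2 comparisons, so the repeat is not independent of it. The share of all tested genes at that unadjusted p is not given for either mold type. DESeq2 called 1 of the 4 genes in each mold type, COL12A1 in anchored tissue (adjusted p = 0.0473) and LAMC1 in unanchored tissue (adjusted p = 0.0147). Leaving out a library brought single calls in edgeR. In anchored tissue COL12A1 passed without anchored middle library 1 (adjusted p = 0.0349) and NID1 without no-mold library 2 (0.0405). In unanchored tissue LAMC1 passed without unanchored middle library 3 (0.0197), anchored middle library 2 (0.0263) or anchored post library 2 (0.0257), and HSPG2 without unanchored middle library 3 (0.049). The region difference itself was not found to depend on anchoring: of the 10 genes 0 were called in the interaction, where 0% of all tested genes were called. Over all genes 223 had an unadjusted p under 0.05 there, none of them among the 10, and DESeq2 called 0. The interaction values ran from -0.13 for COL12A1 to 0.23 for COL6A2, with the widest 95% interval for COL4A1 (0.14, from -0.51 to 0.79).

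**Figure D3:**
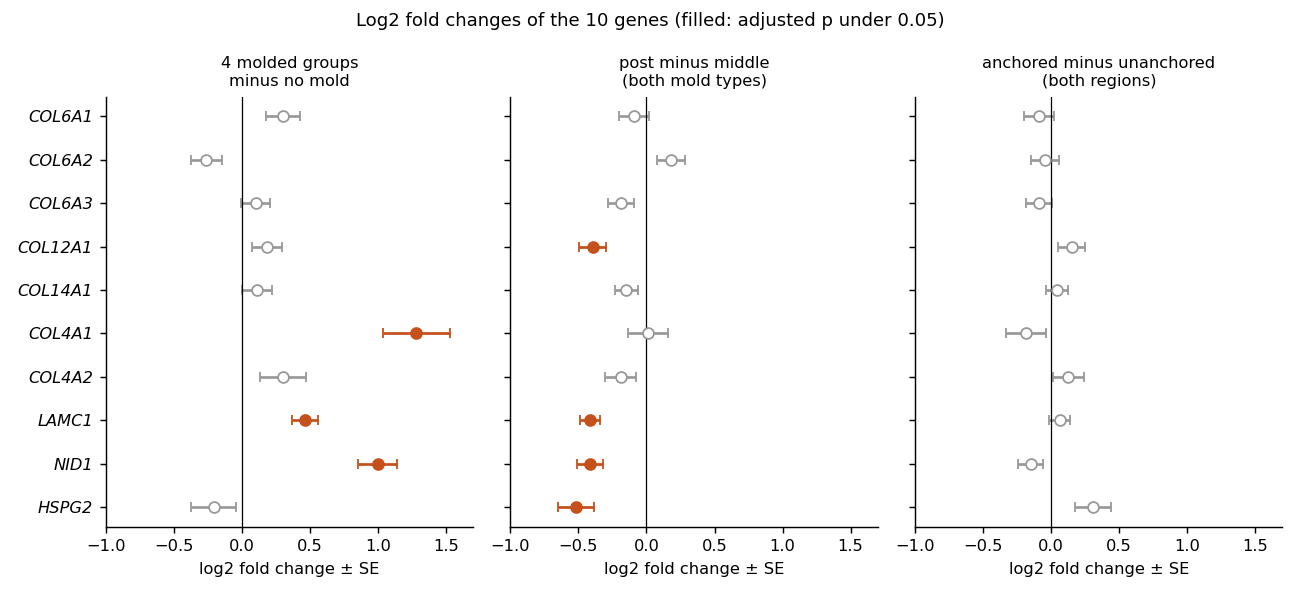
Log2 fold change ± SE (x axis) of each of the 10 genes (y axis) for the 4 molded groups minus no mold, post minus middle and anchored minus unanchored, from the edgeR model of 15 libraries. Filled points have an adjusted p under 0.05: COL4A1, LAMC1 and NID1 to the right in the first panel, COL12A1, LAMC1, NID1 and HSPG2 to the left in the second, and none in the third.

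Anchoring the tissue on posts gave no call for any of the 10 genes. Over both regions 0 of 10 genes were called, where 0% of all tested genes were called, 648 of them with an unadjusted p under 0.05, and DESeq2 called 0. HSPG2 alone of the 10 had an unadjusted p under 0.05 in edgeR: its log2 fold change of anchored over unanchored was 0.31, with a 95% interval from 0.01 to 0.61 (adjusted p = 0.886). For the type VI chains the differences were -0.09 for COL6A1 (95% interval -0.33 to 0.15), -0.04 for COL6A2 (-0.27 to 0.18) and -0.09 for COL6A3 (-0.30 to 0.12). For the fibril-associated collagens they were 0.15 for COL12A1 (-0.06 to 0.36) and 0.04 for COL14A1 (-0.14 to 0.23). Among the other basement membrane genes they were -0.19 for COL4A1 (-0.51 to 0.14), 0.13 for COL4A2 (-0.13 to 0.38), 0.06 for LAMC1 (-0.11 to 0.23) and -0.15 for NID1 (-0.36 to 0.06). These intervals show which differences the data allow, and a missed threshold does not show that anchored and unanchored tissue were alike.

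Taken in each region alone, anchored and unanchored tissue again gave 0 of 10 calls, with 0% of all tested genes called in either region and 0 by DESeq2. At an unadjusted p under 0.05 there were 366 genes in the middle and 454 in the post region, none of them among the 10. The largest differences of the 10 genes were 0.28 for HSPG2 and -0.26 for COL4A1 in the middle region (95% intervals -0.13 to 0.69 and -0.72 to 0.20) and 0.34 for HSPG2 in the post region (-0.09 to 0.77). NID1 was lower in every anchored than in every unanchored middle library, at -0.13 on the log2 scale (-0.42 to 0.16), an interval that includes 0. Such separation was seen for 1 of the 10 genes in the middle and 0 of 10 in the post region. Its share over all tested genes was not counted, so it is not read as an effect of anchoring.

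Other genes of the same matrix systems, taken from lists by function, showed how far the pattern extended. Of 6 further type VI and type IV chains none had enough counts to be tested: COL6A5 and COL6A6 had 6 and 8 counts over all libraries, and COL4A3, COL4A4, COL4A5 and COL4A6 had 0, 3, 11 and 1. Type VI and type IV collagen transcripts in these libraries were therefore almost entirely those of COL6A1, COL6A2 and COL6A3 and of COL4A1 and COL4A2. Of 5 further fibril-associated collagens only COL16A1 could be tested.

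Of 23 other basement membrane genes 18 were tested. Against no mold, 5 were higher and 3 lower in molded tissue, where 8.04% of all tested genes were higher and 7.91% lower, and the median log2 fold change was 0.07, against 0.00 for all tested genes. The higher ones included direct partners of LAMC1 and NID1: the laminin chains LAMA2 (0.73 ± 0.124, SE; adjusted p = 0.000319) and LAMB1 (0.48 ± 0.0838, SE; adjusted p = 0.000414) and nidogen-2, NID2 (0.54 ± 0.0847, SE; adjusted p = 0.000141). LAMA2, LAMB1 and NID2 had no overlap between molded and no-mold libraries, and their calls held in all 20 alternatives. LAMA4, a laminin α chain, and NTN4, a netrin that binds laminin, were also higher (both 0.47, adjusted p = 0.011 and 0.0191). LAMB3 (-0.63, adjusted p = 0.0194), COL18A1, the precursor of endostatin (-0.64, adjusted p = 0.00646), and TINAGL1 (-0.59, adjusted p = 0.0274) were lower. Each of these last 5 calls was lost in at least 2 alternatives, among them the one without the 3 shallowest libraries, with adjusted p between 0.223 and 0.448 there. COL15A1, a relative of COL18A1, was at -0.00 (adjusted p = 0.995).

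Between regions 7 of the 18 genes were lower in post than in middle tissue and 0 higher, against 5.19% and 3.32% of all tested genes, with a median of -0.18, against -0.01. SMOC2 and SMOC1, calcium-binding relatives of SPARC, were lower by -1.20 ± 0.209 (SE; adjusted p = 0.000894) and -0.63 ± 0.136 (SE; adjusted p = 0.00515). SMOC2 averaged 61.1 CPM in post and 142.0 CPM in middle libraries. LAMA2 (-0.50, adjusted p = 0.00141) and NID2 (-0.33, adjusted p = 0.00318) moved in the same direction as LAMC1 and NID1, and these 4 were also among the genes higher with a mold. LAMB1 was at -0.17 (adjusted p = 0.128). SPARC (-0.41, adjusted p = 0.023), LAMA4 (-0.34, adjusted p = 0.02) and COL18A1 (-0.45, adjusted p = 0.0288) passed but each lost the call in 5 or more of the 20 alternatives. COL16A1 was lower too (-0.57 ± 0.109, SE; adjusted p = 0.00216).

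**Figure D4:**
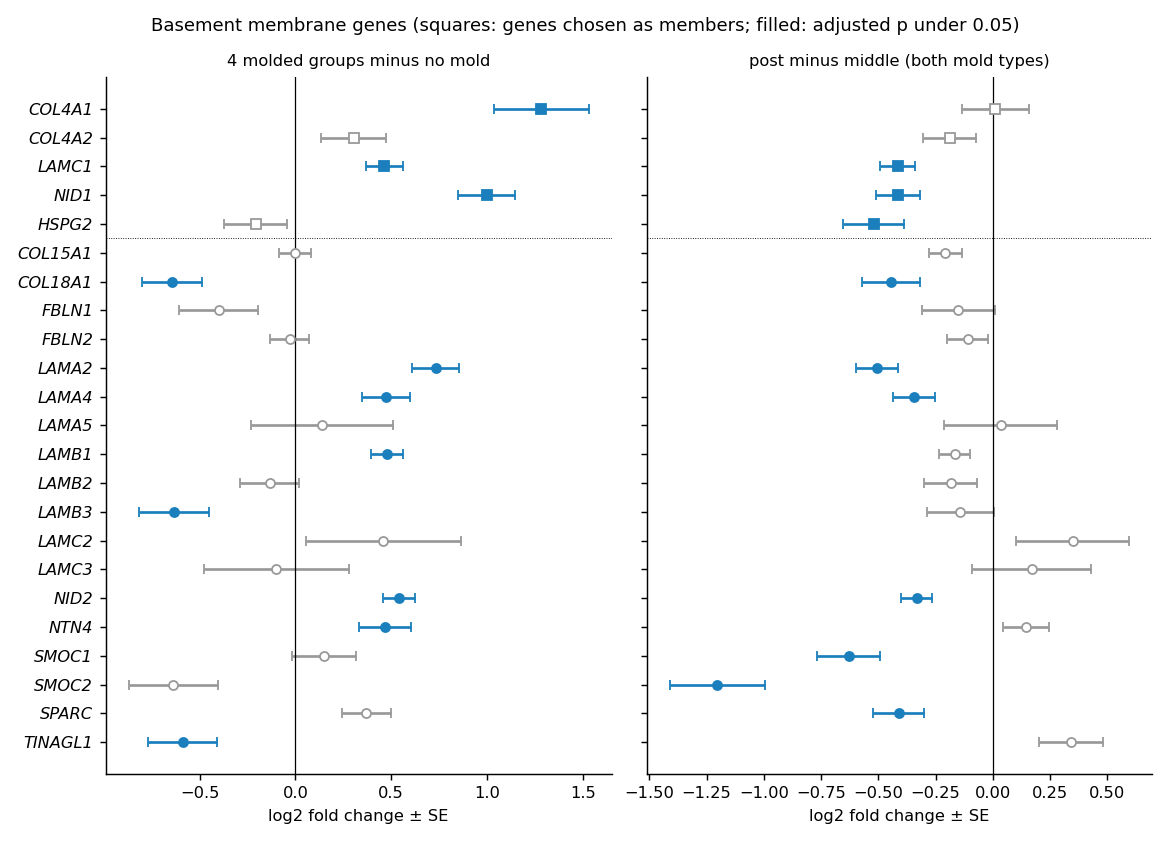
Log2 fold change ± SE (x axes) of the 5 basement membrane genes among the 10 (squares) and of 18 other basement membrane genes (circles), for molded minus no mold and for post minus middle. Filled symbols have an edgeR adjusted p under 0.05. LAMC1, NID1, LAMA2, LAMA4 and NID2 are filled to the right in the first panel and to the left in the second.

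Of 18 receptors of these collagens and laminins 15 were tested. With a mold 0 were higher and 1 was lower, where 8.04% of all tested genes were higher and 7.91% lower. It was the hyaluronan receptor CD44 (-0.38, adjusted p = 0.00482), a call lost without no-mold library 3 (adjusted p = 0.111) and without the 3 shallowest libraries (0.339). In post regions 3 of 15 were lower and 0 higher, against 5.19% and 3.32% of all tested genes. They were the collagen-binding integrin chains ITGA10 (-0.48, adjusted p = 0.00171) and ITGA11 (-0.61, adjusted p = 0.0302) and the collagen receptor kinase DDR2 (-0.25, adjusted p = 0.0153). ITGA10 was lower in every post than in every middle library, and ITGA11 lost its call in 6 of 20 alternatives.

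Enzymes and chaperones of collagen assembly were tested for 14 of 15 genes. With a mold 3 of 14 were higher and 2 lower, where 8.04% of all tested genes were higher and 7.91% lower. The higher ones were the prolyl hydroxylase subunits P4HA3 (0.61, adjusted p = 0.000542) and P4HA1 (0.34, adjusted p = 0.0196) and the lysyl hydroxylase PLOD2 (0.28, adjusted p = 0.0178). Another lysyl hydroxylase, PLOD1 (-0.74, adjusted p = 0.000849), and the procollagen protease BMP1 (-0.30, adjusted p = 0.0377) were lower. Of these only PLOD1 passed in all 20 alternatives. In post regions 6 of 14 were lower, against 5.19% of all tested genes, and 0 of the 14 values were above 0, against 48.7% of all tested genes. PXDN, the peroxidase that cross-links type IV collagen, was at -0.58 ± 0.11 (SE; adjusted p = 0.00186), and LOXL2, a lysyl oxidase that acts on type IV collagen, at -0.46 (adjusted p = 0.0061). P4HB (-0.42, adjusted p = 0.00668) and P4HA3 (-0.39, adjusted p = 0.00869) also passed throughout, whereas PLOD1 (-0.40, adjusted p = 0.043) and PLOD2 (-0.25, adjusted p = 0.0276) lost the call in 10 and 5 of the 20 alternatives.

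Binding partners of collagens VI, XII and XIV were tested for 9 of 13 genes. With a mold 3 of 9 were higher and 0 lower, where 8.04% and 7.91% of all tested genes were, and in post regions 1 was higher and 3 lower, where 3.32% and 5.19% were. Decorin, DCN, which binds type VI and type XIV collagen (0.85 ± 0.0877, SE; adjusted p = 8.34e-07), tenascin-C, TNC, a partner of collagen XII (1.00 ± 0.138, SE; adjusted p = 2.92e-05), and periostin, POSTN (0.81 ± 0.106, SE; adjusted p = 1.62e-05), were higher with a mold. No library overlapped between the sides for these 3 genes, and the calls held in all 20 alternatives. In post regions fibromodulin, FMOD, was lower (-0.45 ± 0.0903, SE; adjusted p = 0.00281) in every library. Biglycan, BGN (-0.36, adjusted p = 0.0247), and POSTN (-0.28, adjusted p = 0.0397) were lower and lumican, LUM, higher (0.34, adjusted p = 0.0191), but these 3 lost the call in 6, 9 and 3 of 20 alternatives. Between anchored and unanchored tissue none of the listed genes was called. In post against middle tissue of 1 mold type the listed genes called in anchored tissue were COL16A1, NID2, SMOC2 and ITGA10, and in unanchored tissue there were none.

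The 10 genes were also compared with each other over the 12 molded libraries, leaving out the no-mold libraries because they stood apart. Of 45 pairs 39 had a positive correlation of log2 CPM, and 5 passed after adjustment over the 45 pairs by both Pearson's r and Spearman's rho (100000 permutations). These shares were not counted over pairs of all tested genes, so both counts have no background to be read against. The permutations ran over all 12 libraries without regard to group, so differences between regions enter these p-values. Correlations between deviations from the group means were not tested. COL6A1 and COL6A3 went most closely together, with r = 0.904 and rho = 0.895 (permutation p = 0.00022 and 0.00018, adjusted 0.0099 and 0.0081). Without the 2 libraries farthest from the median of COL6A1 r was 0.887, and between deviations from the group means it was 0.937. Other chains of the same trimer did not pass. COL6A1 and COL6A2 had r = 0.231 and rho = 0.392 (adjusted permutation p = 0.606 and 0.315), and r = 0.267 between deviations from the group means. COL4A1 and COL4A2 had r = 0.506 and rho = 0.21 (adjusted permutation p = 0.203 and 0.608), and r = 0.777 between deviations. Without the 2 libraries farthest from the median of COL4A1, anchored post library 2 and unanchored middle library 1, their r was 0.155.

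The other 4 pairs joined the basement membrane genes LAMC1, HSPG2 and COL4A2 to each other and LAMC1 to COL6A3. LAMC1 and HSPG2 had r = 0.811 and rho = 0.79 (permutation p = 0.00237 and 0.00337, adjusted 0.0227 and 0.0402), and r = 0.646 between deviations from the group means. COL4A2 and HSPG2 had r = 0.797 and rho = 0.818 (permutation p = 0.00253 and 0.00164, adjusted 0.0227 and 0.0369), with 0.709 between deviations. For COL4A2 and LAMC1 the values were 0.73 and 0.769 (permutation p = 0.00861 and 0.00531, adjusted 0.0387 and 0.0478), with 0.640 between deviations. COL6A3 and LAMC1 had 0.72 and 0.79 (permutation p = 0.00641 and 0.00357, adjusted 0.0321 and 0.0402), with 0.831 between deviations. Without the 2 libraries farthest from the median of the first gene named, r was 0.695, 0.772, 0.828 and 0.935 in the same order. No pair with NID1 or COL4A1 passed by both measures. Between deviations NID1 had negative r with COL4A1 (-0.58), COL4A2 (-0.61), HSPG2 (-0.57) and LAMC1 (-0.24). Its r over the 12 molded libraries was -0.04, 0.15, 0.29 and 0.64 in that order. The libraries of a pair share depth and RNA composition, since both values come from the same library.

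**Figure D5:**
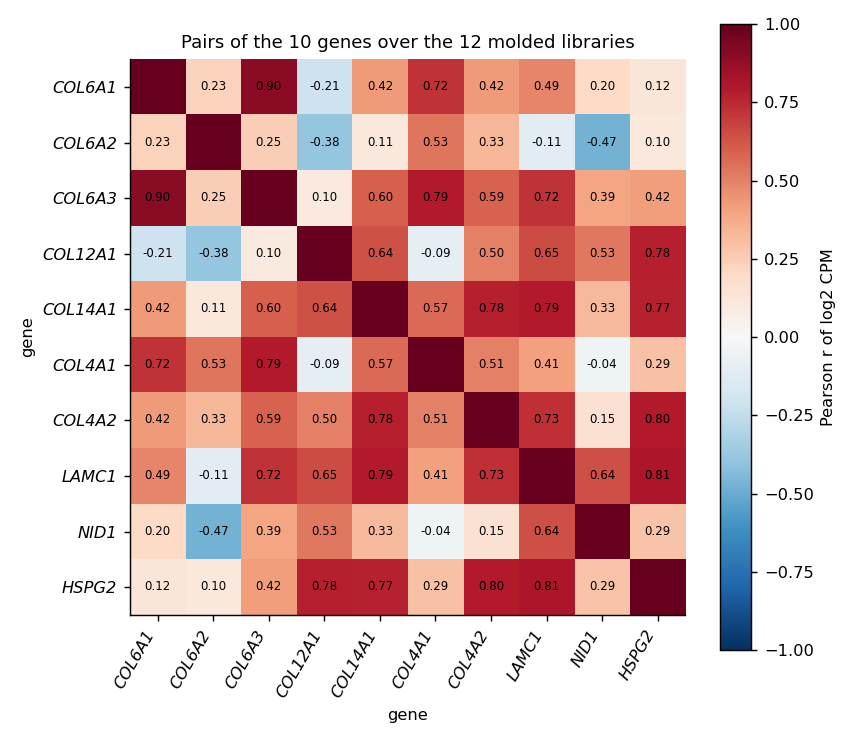
Pearson's r of log2 CPM for each pair of the 10 genes over the 12 molded libraries (both axes list the genes, colour and printed value give r from -1 to 1). COL6A1 and COL6A3 reach 0.90, LAMC1 and HSPG2 0.81, whereas COL6A1 with COL6A2 is at 0.23.

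Genes whose log2 CPM ran most closely with each of the 10 over all 15 libraries, up to 3 for each, were found among 7082 genes with a mean of at least 10 CPM. These correlations are descriptions, and the no-mold libraries, depth and composition contribute to all of them. For COL6A1 they were F5 (r = 0.959), SHC1 (0.956) and SYNE1 (0.936), for COL6A2 GPC1 (0.883), PLEC (0.869) and DES (0.843), and for COL6A3 WNK1 (0.923), FYCO1 (0.896) and SPTAN1 (0.892). COL12A1 ran with TENT5A (0.952) and EPHB3 (0.920), and COL14A1 with PHRF1 (0.884), LRP1 (0.877) and LOXL1 (0.870). COL4A1 ran with RUFY1 (0.915) and CPXM2 (0.892), and COL4A2 with PSMD2 (0.874), AP1B1 (0.869) and G6PC3 (0.861). PSMD2 (0.934) also led for LAMC1, before ANXA2 (0.930) and MPZL1 (0.928). NID1 was closest to GPM6B (0.947), C1S (0.942) and ATP6V0D1 (0.918), and HSPG2 to BGN (0.946), SEC61A1 (0.937) and RCN3 (0.914). Of the genes on the function lists, BGN was the only one among those named here.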

How the data were processed

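RNA was measured in 15 bovine libraries, 3 in each of 5 groups taken from the labels. Per the labels' protocols, RNA was captured by oligo-dT with a molecular identifier and tagmented, so reads come mainly from 3′ ends and no length scaling was applied. The tools named in the submitters' processing notes are STAR 2.7, featureCounts of Subread 2.1.1, SAMtools 1.21 and MultiQC 1.33. Genome build, strand setting and any use of molecular identifiers in counting were not given in the sources used here.

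The authors deposited CPM and expected counts per gene. Of a library's nonzero expected counts, 13.5% to 16.3% were not whole (tolerance 1e-06). The deposited CPM equal the counts scaled by the column total and served only as an alternative scale. The 92 spike-in rows (582 counts in all) were left out. Counts were rounded and filtered with filterByExpr (count 10, total 15), which left 11834 genes, and scaled by TMM (factors 0.934 to 1.049). Values in the text are TMM-normalised CPM. All 15 libraries entered 1 quasi-likelihood fit of group means (edgeR 4.0.16, limma 3.58.1, R 4.3.3), from which 12 two-sided contrasts were drawn and adjusted over all tested genes with a threshold of 0.05. Standard errors came from the fold change and its F statistic, 95% intervals from 10 residual degrees of freedom. The script was tested on simulated data.

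The 10 genes, the gene lists and the tests were chosen with earlier results of these data known. All 10 genes are named for molded against no mold, post against middle over both mold types, and anchored against unanchored over both regions. In the other comparisons only some of the 10 are named, mainly those that passed, came near the threshold or differed most. These were picked after their values were seen. Listed genes are named where they passed, and LAMB1, COL15A1 and single markers were named after their values were seen. Ratios (exact permutation tests, SciPy 1.17.1) were added after the data were seen. Alternatives were no filter, relative log expression scaling, DESeq2 1.42.0, a replicate block, leaving out each library and leaving out the 3 shallowest. Same-group libraries differed by more than sampling noise (chi-square over its degrees of freedom, 2.60 to 13.0), so none was merged. No sequence was used, and gene coordinates served only to find neighbouring and overlapping genes. Some of the genes most like a member are withheld for evaluation and not reported here.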

Additional observations from a re-analysis of the deposited data

How the results depend on the processing

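For the 10 genes in the 12 comparisons, 2396 alternative values were computed: 2337 kept their direction and side of the threshold or stayed uncalled (84 of these with the other sign), 17 lost a call, 42 gained one and 0 reversed a call. Among the limits is depth: no-mold libraries 1 and 3 hold 2060781 and 2128257 counts, and 14 to 36 counts stand behind the no-mold COL4A1 values. The causes of the changes below were not tested, apart from fewer libraries or a different set of tested genes.

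Leaving out 1 library at a time gave 3 to 4 of the 10 genes called for molded against no mold (856 to 2297 of all genes, against 1888), 3 to 4 for unanchored middle (790 to 2061, against 1747), 2 to 3 for unanchored post (496 to 1403, against 1068), 3 to 5 for anchored middle (768 to 1861, against 1575) and 0 to 2 for anchored post (251 to 951, against 658), each against no mold. The lowest gene counts of these 5 came without no-mold library 3. Gene counts also changed by over 1.5 times without no-mold library 1 (1127 for molded, 1162 for unanchored middle, 605 for unanchored post, 280 for anchored post) and without some libraries of the molded group compared, within the ranges given. For post against middle it gave 2 to 4 over both mold types (465 to 1150, against 1007), lowest without unanchored middle library 2, 0 to 1 in anchored tissue (62 to 283, against 227) and 0 to 2 in unanchored tissue (3 to 159, against 53). For anchored against unanchored it gave 0 of the 10 and 0 to 1 genes over both regions, and 0 in the other contrasts.

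Without the 3 shallowest libraries the calls among the 10 genes were 1 for molded, 1 for unanchored post, 2 for anchored middle and 1 for anchored post against no mold, and 1 each for post against middle in anchored and in unanchored tissue. Genes called were then 335 for molded, 421 for unanchored middle, 170 for unanchored post, 411 for anchored middle and 82 for anchored post against no mold, and 148 for post against middle in unanchored tissue. With no filter on low counts 5 of the 10 genes passed for unanchored middle against no mold, and 4 and 2 for post against middle in anchored and unanchored tissue, with 479 and 272 genes called there. Anchored against unanchored then gave 66 genes over both regions, 28 in the middle and 21 in the post region, and the interaction 3, none among the 10. DESeq2 called 1 of the 10 genes in each mold type for post against middle, and 133 genes in unanchored tissue. HSPG2 passed in unanchored post against no mold with DESeq2 (adjusted p = 0.0277), and COL6A2 in anchored middle with DESeq2 (0.0347) and with relative log expression scaling (0.0443).

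The labels do not say that a replicate number marks a shared tissue or day, and no pairing was used. Deviations from group means of same-numbered libraries correlated between -0.187 and 0.297 (median 0.0239), against -0.248 to 0.213 (median -0.0122) for different numbers, and 10 of 15 libraries correlated best with a library of their own number, a hint from the data that some numbers may be shared. With the replicate block, 1 gene, not one of the 10, was called for anchored against unanchored over both regions, COL6A1 passed in unanchored middle against no mold (adjusted p = 0.0492), and no other call among the 10 genes changed.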
